A study of Homo sapiens with 6 samples.

Results

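The 10 genes described here encode the enzymes that add fatty acyl chains to a glycerol backbone, together with close relatives: AGPAT1, AGPAT2, AGPAT3, AGPAT4 and AGPAT5, the glycerol 3-phosphate acyltransferases GPAM, GPAT3 and GPAT4, and LPCAT1 and LCLAT1. They were taken by symbol from tables of 28278 symbols. AGPAT4 heads the group because its count was among those that fell furthest in this comparison, so its own change is given as a description with no test. The other 9, called relatives below, were added as enzymes of the same or related acylation steps. Of them, AGPAT1, AGPAT2, AGPAT3 and AGPAT5 belong to the AGPAT step itself. All 10 passed the filter on low counts, which left 14002 genes for testing.

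RNA was sequenced from HCT116, an established line from a poorly differentiated human colon carcinoma. Both arms share the same handling: the shRNA came by lentivirus, puromycin at 5 µg/ml was begun 36 h after infection and kept up for weeks, and the cells are labelled day 21. The 3 shControl libraries come from cells with a scrambled shRNA and are labelled WT, and the 3 shTRIM21 libraries from cells with an shRNA that targets TRIM21. The labels do not say how many hairpins against TRIM21 were used, and no rescue is among these samples. The libraries are labelled biological replicates without saying that cultures were separate, so the p-values reflect library-to-library spread that may be technical.

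Glycerolipid synthesis starts when a glycerol 3-phosphate acyltransferase (GPAT) places a first acyl chain on glycerol 3-phosphate and makes lysophosphatidic acid. An acylglycerol-phosphate acyltransferase (AGPAT, also called LPAAT) adds the next chain and makes phosphatidic acid, from which cells build triacylglycerol by way of diacylglycerol, and phosphatidylinositol and cardiolipin by way of CDP-diacylglycerol. The AGPAT enzymes carry out the same reaction but differ in the tissues and membranes where they are found. Other acyltransferases re-acylate lysophospholipids after a chain has been removed.

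Library totals ran from 22656160 to 27123657 counts. Genes for rRNA held 6.69% of the counts in shControl replicate 3 and 9.55% in shTRIM21 replicate 3. In the remaining libraries they held 13.2% to 15.2%, and the part of this difference in the results was not tested. TRIM21 itself, the targeted gene, had 288, 286 and 443 counts in shControl and 225, 182 and 173 in shTRIM21, and its fitted level was 60.3% of the control level (edgeR quasi-likelihood test, adjusted p = 0.0124). That call was lost without shTRIM21 replicate 3 (adjusted p = 0.0734) and with replicate 3 of both groups left out (0.114). Of 8 epithelial markers 7 passed the filter on low counts, and the summed level of all 8 was 278 to 301 CPM in shControl and 262 to 265 CPM in shTRIM21. Intestinal markers summed to 43.5 to 45.6 CPM in shControl and 39.5 to 42.2 CPM in shTRIM21, with CDX1 and LGALS4 at 0 in all libraries. Both sums were lower in every shTRIM21 library, but not every epithelial marker fell. Group means of CDH1, KRT8, KRT18, KRT19 and DSP were lower in shTRIM21. Those of EPCAM, ESRP2 and ESRP1 were higher, with overlapping groups for EPCAM and ESRP2 and counts of ESRP1 too low for the filter. The part of these sums in the results below was not tested. Leukocyte, fibroblast, endothelial and adipocyte marker lists each summed to less than 1 CPM in every library. CPM here is the count relative to the library size after TMM scaling.

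AGPAT4 was the only 1 of the 10 genes to lose most of its transcript. This gene (ENSG00000026652; GRCh38 chromosome 6, 161129979 to 161274061, minus strand) encodes an acyltransferase that makes phosphatidic acid. Replicates 1 to 3 of shControl gave 215, 236 and 259 raw counts of AGPAT4, and those of shTRIM21 gave 70, 40 and 110. In CPM it read 8.79, 9.64 and 9.22 for shControl and 2.75, 1.80 and 4.25 for shTRIM21. The control libraries lay close together, the knockdown libraries were more scattered, and the highest knockdown value stayed below the lowest control value. Group means were 9.22 ± 0.424 CPM in shControl and 2.93 ± 1.24 CPM in shTRIM21 (SD, n = 3 each). The log2 fold change was -1.64 (SE 0.25), which left 32.0% of the control level and ranked 36 from the lowest among the 14002 genes. AGPAT4-IT1, a transcript annotated inside AGPAT4 on the same strand with no exon in common, had 10, 10 and 2 counts in shControl and 0, 4 and 17 in shTRIM21.

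**Figure D1:**
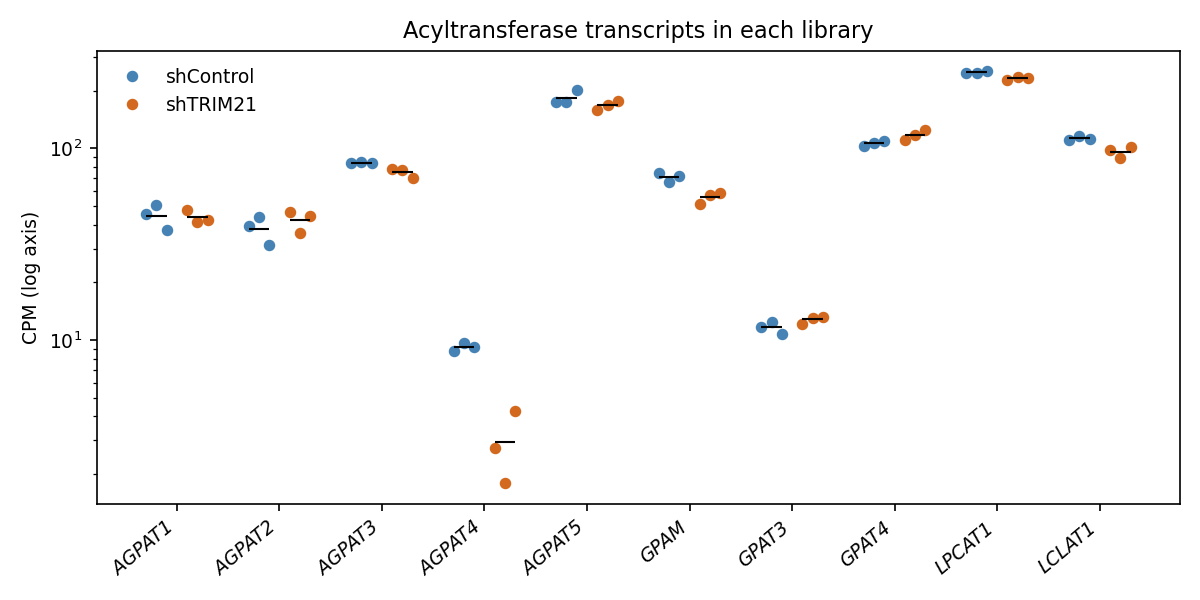
CPM (TMM-scaled, log axis) of the 10 acyltransferase genes in each of 6 libraries. Points are libraries, blue for shControl and orange for shTRIM21, and black lines are group means. AGPAT4 stands at 9.22 CPM in shControl and 2.93 CPM in shTRIM21, while the group means of every other gene lie close together.

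Of the other AGPAT genes, none passed the test in either direction. Over all genes tested 9.08% were called, so the lack of calls among so few genes was not read as a result. AGPAT3, at 43865186 to 43986536 of chromosome 21 (plus strand), encodes an acyltransferase of the endoplasmic reticulum and Golgi. It read 83.7, 84.6 and 84.3 CPM in shControl and 77.7, 77.4 and 70.0 CPM in shTRIM21. The groups did not overlap, but the log2 fold change of -0.17 (SE 0.07) had an edgeR adjusted p = 0.173, where the adjustment (Benjamini-Hochberg) covers all genes tested. AGPAT5, a mitochondrial member at 6708357 to 6759666 of chromosome 8 (plus strand), read 175, 173 and 201 CPM in shControl and 159, 169 and 177 CPM in shTRIM21. Those ranges overlapped, and the log2 fold change was -0.12 (SE 0.07, edgeR adjusted p = 0.335). It was -0.04 without shControl replicate 3, the highest control library, -0.08 without shTRIM21 replicate 1 and -0.08 with replicate 3 of both groups left out.

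AGPAT1 is widely expressed among tissues, and loss of AGPAT2, abundant in fat, causes a congenital lipodystrophy. AGPAT1, at 32168212 to 32178096 of chromosome 6 (minus strand), read 45.7, 50.4 and 37.4 CPM in shControl and 47.9, 41.5 and 42.1 CPM in shTRIM21. AGPAT2, at 136673143 to 136687423 of chromosome 9 (minus strand), read 39.3, 43.7 and 31.2 CPM in shControl and 46.3, 36.2 and 44.3 CPM in shTRIM21. Both genes varied more between libraries of 1 group than between the groups. Their log2 fold changes were -0.02 (SE 0.11) and 0.15 (SE 0.12), with edgeR adjusted p of 0.936 and 0.478. Neither sign was stable: AGPAT1 was at 0.08 without shControl replicate 2, 0.02 without shTRIM21 replicate 2 and 0.01 without shTRIM21 replicate 3, and AGPAT2 was at -0.02 when GC content and length entered as an offset. AGPAT1 shares 1087 bases of exon with PPT2-EGFL8 on the opposite strand, and since no source used here gives the strand setting of the counting, reads of that stretch could belong to either gene. PPT2-EGFL8 had 15.2 ± 1.98 CPM in shControl and 12.7 ± 1.61 CPM in shTRIM21 (SD, n = 3 per group).

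The GPAT step held 1 gene that fell and 2 that did not pass, where 4.66% of all genes were called lower and 4.43% higher. GPAM, the mitochondrial glycerol 3-phosphate acyltransferase, is located at 112149864 to 112215377 of chromosome 10 (minus strand). Its level was 74.5, 67.1 and 72.0 CPM in shControl and 51.0, 57.0 and 58.7 CPM in shTRIM21, so every knockdown library lay below every control library. The mean fell from 71.2 ± 3.79 CPM to 55.6 ± 4.07 CPM (SD, n = 3 in each group), a log2 fold change of -0.36 (SE 0.08) that left 78.0% of the control level (edgeR adjusted p = 0.00941). That call was lost, narrowly, without shControl replicate 1 (-0.32, edgeR adjusted p = 0.0534) and without shTRIM21 replicate 1 (-0.30, adjusted p = 0.0522). A change of this size did not pass a test against 1.5-fold.

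GPAT3 and GPAT4, the GPAT enzymes of the endoplasmic reticulum, went the other way by amounts that did not pass. GPAT4, at 41577187 to 41625001 of chromosome 8 (plus strand), read 103, 106 and 109 CPM in shControl and 111, 117 and 125 CPM in shTRIM21. Every knockdown library was above every control library, yet the log2 fold change of 0.15 (SE 0.07) had an edgeR adjusted p = 0.209. With total counts as the scaling the GPAT4 groups overlapped. GPAT3, at 83535914 to 83605875 of chromosome 4 (plus strand), read 11.7, 12.5 and 10.8 CPM in shControl and 12.2, 13.0 and 13.3 CPM in shTRIM21. Its groups overlapped, at a log2 fold change of 0.14 (SE 0.14, edgeR adjusted p = 0.621).

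LCLAT1 and LPCAT1 act on other lysophospholipids. LCLAT1, an endoplasmic reticulum enzyme named for lysocardiolipin, is located at 30447226 to 30644225 of chromosome 2 (plus strand). It read 110, 116 and 112 CPM in shControl and 97.7, 88.9 and 102 CPM in shTRIM21, without overlap. The mean fell from 113 ± 3.07 CPM to 96.1 ± 6.60 CPM (SD, n = 3 in each group), at a log2 fold change of -0.23 (SE 0.07), or 85.2% of the control level (edgeR adjusted p = 0.0461). This call sat at the threshold and was kept in 8 of 18 alternative fits. Leaving out any library other than shControl replicate 3 ended it, with adjusted p from 0.0707 to 0.224, and so did limma-voom (0.0525), upper-quartile scaling (0.0586), total counts (0.111) and an offset built on GC and length (0.106). LPCAT1, which re-acylates lysophosphatidylcholine, is located at 1456480 to 1523977 of chromosome 5 (minus strand). It read 247, 247 and 252 CPM in shControl and 227, 235 and 233 CPM in shTRIM21, a gap without overlap but small, with a log2 fold change of -0.10 (SE 0.06, edgeR adjusted p = 0.323).

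**Figure D2:**
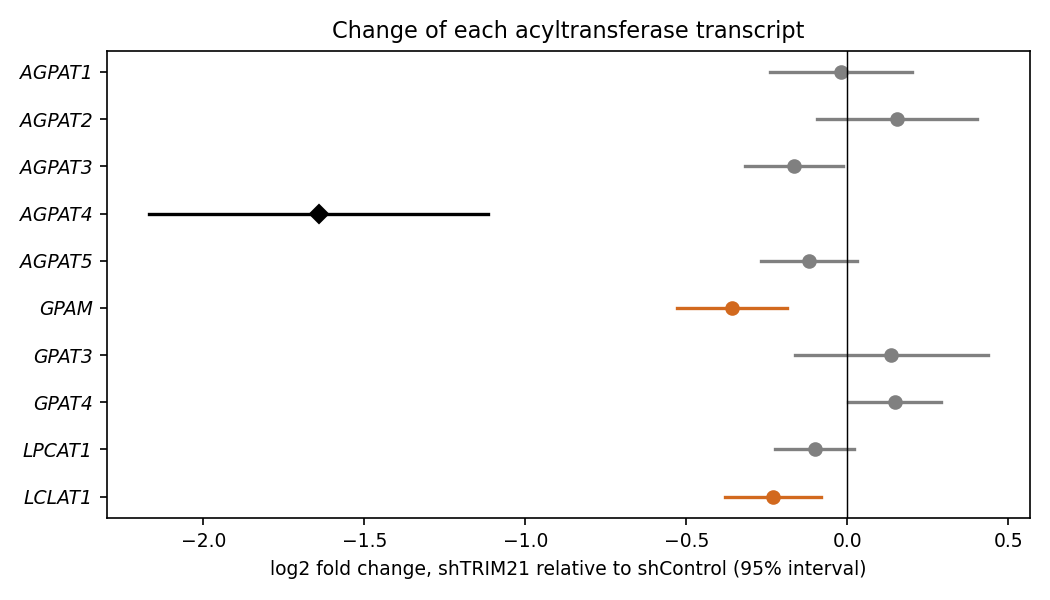
Log2 fold change of each acyltransferase gene in shTRIM21 relative to shControl, with 95% intervals from the edgeR fit that are not adjusted for the number of genes. Orange marks relatives past the threshold (GPAM at -0.36 and LCLAT1 at -0.23), grey those that did not pass, and the dark diamond AGPAT4 at -1.64, which was chosen for its fall.

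Among the 9 relatives, edgeR's quasi-likelihood test called 2 lower and 0 higher, and 7 did not pass. Over all 14002 genes 4.66% were called lower and 4.43% higher. At an unadjusted p under 0.05, which 22.8% of all genes reached, the relatives included 3 lower and 1 higher. DESeq2 called 2 lower and 0 higher, and limma-voom 1 lower and 0 higher. Over all genes, in either direction, DESeq2 called 1545 of 19002 fitted and limma-voom 1198 of 14002. The groups did not overlap for 4 relatives that lay lower and 1 that lay higher, where 13.9% and 14.1% of all genes did so in each direction. The median log2 fold change was -0.10 over the 9 relatives and 0.01 over all genes tested. In none of 18 alternative fits was a relative called higher.

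Whether relatives make up for AGPAT4 was asked of the transcripts on a scale that allows genes to be added, CPM per kb of annotated exon. On this scale the order in shControl was AGPAT5 at 39.1 ± 3.27, LPCAT1 at 38.3 ± 0.466, AGPAT2 at 21.2 ± 3.52, LCLAT1 at 15.0 ± 0.409 and GPAT4 at 13.4 ± 0.375 CPM per kb (SD, n = 3). Below them came AGPAT1 at 12.3 ± 1.81, AGPAT3 at 7.45 ± 0.0382, GPAM at 7.26 ± 0.386, GPAT3 at 3.36 ± 0.236 and AGPAT4 at 1.05 ± 0.0483 CPM per kb (SD, n = 3). Neighbours whose control libraries overlapped were AGPAT5 and LPCAT1, GPAT4 and AGPAT1, and AGPAT3 and GPAM. In shTRIM21 the order was the same except that GPAT4 stood above LCLAT1. With the longest transcript as the length, AGPAT1 stood above GPAT4 in shControl, LCLAT1 stayed above GPAT4 in shTRIM21, and AGPAT4 was last in both groups.

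AGPAT4 held a small share of the AGPAT transcripts already in control cells. It made up 1.25%, 1.31% and 1.33% of the summed AGPAT level per kb in shControl and 0.391%, 0.274% and 0.600% in shTRIM21. The sum over all AGPAT genes was 80.3, 83.8 and 79.1 CPM per kb in shControl and 80.1, 74.7 and 80.8 CPM per kb in shTRIM21. These ranges overlapped, at 81.1 ± 2.46 and 78.6 ± 3.33 CPM per kb (SD, n = 3 per group). Without AGPAT4 the sums were 80.0 ± 2.42 and 78.2 ± 3.21 CPM per kb, so the summed level of the other AGPAT genes was no higher on average in the knockdown cells. Within that sum the mean of AGPAT2 was higher in shTRIM21, and the means of AGPAT1, AGPAT3 and AGPAT5 were lower. The summed GPAT level was 24.0 ± 0.215 CPM per kb in shControl and 24.2 ± 1.43 CPM per kb in shTRIM21, with GPAM lower and, under TMM scaling, GPAT4 higher in every knockdown library. Over all 10 genes the sums were 157, 161 and 157 CPM per kb in shControl and 151, 147 and 156 CPM per kb in shTRIM21, lower in each knockdown library. With total counts as the scaling the ranges overlapped, at 153, 160 and 163 against 149, 144 and 160 CPM per kb, while the difference of the means stayed similar, at -7.51 against -7.15 CPM per kb under TMM. With the longest transcript as the length, the summed GPAT level was 32.5 ± 0.334 CPM per kb in shControl and 32.3 ± 1.93 in shTRIM21. The sign of its difference was therefore not kept. The AGPAT sums without AGPAT4 were then 107 ± 3.14 and 104 ± 3.81 CPM per kb.

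**Figure D3:**
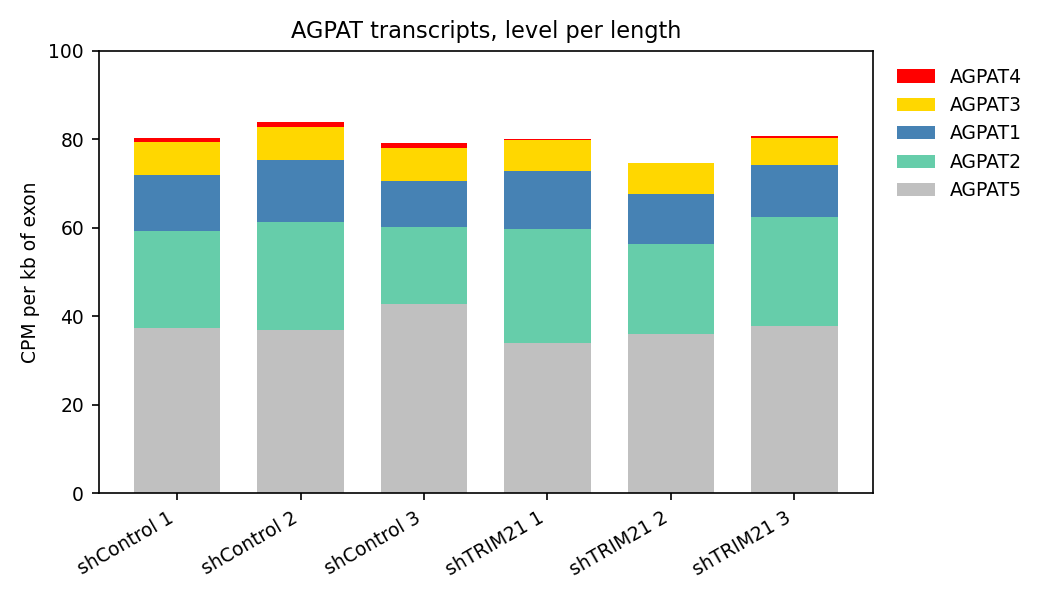
Summed level of the AGPAT genes per library, in CPM per kb of annotated exon, stacked by gene from 0. AGPAT4 is the thin red band at the top, 1.05 CPM per kb on average in shControl and 0.334 in shTRIM21, and the totals of the groups overlap.

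The measured loss of AGPAT4 came to 0.717 CPM per kb, which is small beside the error of its abundant relatives. The mean of AGPAT2 changed by 2.35 CPM per kb, more than that loss, with a 95% interval of the change from -1.33 to 6.81 CPM per kb. AGPAT1 changed by -0.187 CPM per kb, with an interval from -1.89 to 1.82 CPM per kb. AGPAT5 changed by -3.12 CPM per kb, with an interval from -6.66 to 0.775 CPM per kb. A rise in 1 of these genes as large as the loss of AGPAT4 would therefore not have been detectable here. AGPAT3, at -0.811 CPM per kb with an interval from -1.47 to -0.0763 CPM per kb, was the AGPAT gene for which such a rise lay outside the interval. In the GPAT step GPAT4 changed by 1.43 CPM per kb (interval 0.0284 to 2.98). GPAT3 changed by 0.333 (-0.358 to 1.19) and GPAM by -1.60 CPM per kb (-2.23 to -0.887). These intervals cover 1 gene at a time and are not adjusted for the number of genes. They concern transcript level only, and enzyme amount, activity and lipids were not measured in these libraries.

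In these libraries, 2 sequences of 7 bases in the 3′ UTR went with the direction of change across genes, AGTGGAA with lower and GTGTCAC with higher levels. Both were picked earlier from the same fold changes, so the shares that follow are a description. AGTGGAA was found, on the transcript strand, in the longest annotated 3′ UTR of 41.2% of 611 genes called lower, 13.2% of 560 called higher and 16.1% of all 11997 with such a UTR, shares not matched for UTR length. GTGTCAC was in 10.3%, 21.8% and 9.84% of the same groups. AGPAT4, the member with the largest fall, holds 0 copies of AGTGGAA and 1 of GTGTCAC in a 3′ UTR of 7171 bases. GPAM holds neither in 3686 bases. LCLAT1 holds 1 AGTGGAA, and GPAT4, which lay higher in the knockdown libraries under TMM scaling, holds 2 of AGTGGAA and 1 of GTGTCAC. AGPAT3 has 1 copy of GTGTCAC and LPCAT1 has 2, while AGPAT1, AGPAT2, AGPAT5 and GPAT3 hold neither 7-mer. The sites in AGPAT4 (chr6:161136515-161136539, minus strand), LCLAT1 (chr2:30641793-30641817, plus strand) and AGPAT3 (chr21:43983490-43983514, plus strand) are shown because they set the member that fell furthest beside 1 that passed and 1 that did not. They come from GENCODE release 29 transcripts on GRCh38 and read 5′ to 3′, with the 7-mer in capitals.
AGPAT4: ctcagggagGTGTCACcatccgaag
LCLAT1: tttggagtcAGTGGAAaatccagca
AGPAT3: tcctggccgGTGTCACtgtggcccg
A match is no more than a run of letters, and binding of any small RNA to these sites was not measured.

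The rest of the glycerolipid pathway was taken from lists of 79 further genes, of which 66 passed the filter on low counts. Of these, edgeR's quasi-likelihood test called 3 higher and 4 lower, and 59 did not pass, where 9.08% of all genes tested were called in either direction. Their median log2 fold change was 0.00, against 0.01 for all genes. Of the 13 genes not tested, 9 were listed at 0 in every library, DGAT1 among them. CANX and RPL7A, which nearly all cells transcribe, were also listed at 0 throughout, so a 0 in these tables was not read as absence.

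Further acyltransferases of the same or related steps held 2 of 11 genes that fell and 0 that rose, where 4.66% of all genes were called lower and 4.43% higher. LPCAT2, a lysophosphatidylcholine acyltransferase that also makes platelet-activating factor, read 33.7, 32.3 and 31.9 CPM in shControl and 22.0, 26.7 and 24.8 CPM in shTRIM21. Its groups were well apart, with a log2 fold change of -0.41 (SE 0.10, edgeR adjusted p = 0.0188). Without shControl replicate 1 that adjusted p was 0.0766, without shTRIM21 replicate 1 0.0851 and without shTRIM21 replicate 3 0.063. ABHD5, the co-activator of the lipase PNPLA2, also reported as a lysophosphatidic acid acyltransferase, fell from a mean of 78.3 ± 2.96 CPM in shControl to 65.3 ± 4.67 CPM in shTRIM21 (SD, n = 3 each). Its log2 fold change was -0.26 (SE 0.08, edgeR adjusted p = 0.0398), and the call was kept in 9 of 18 alternative fits. It was lost with 1 library left out other than shControl replicate 3, with replicate 3 of both groups left out (0.0662), with total counts (0.0774) and with the GC and length offset (0.0521). At an unadjusted p under 0.05, which 22.8% of all genes reached, this list held 1 gene higher, MBOAT7, and 3 lower.

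Of 6 tested genes of triacylglycerol synthesis, breakdown and the lipid droplet coat, 2 rose and 0 fell, where 4.43% of all genes were called higher. Both that rose encode coat proteins of lipid droplets, and the tested enzymes of the list did not pass. PLIN3 read 51.8, 53.3 and 45.9 CPM in shControl and 66.3, 62.6 and 64.4 CPM in shTRIM21, a log2 fold change of 0.36 (SE 0.08, edgeR adjusted p = 0.0102). PLIN2 read 47.7, 51.7 and 49.2 CPM in shControl and 58.5, 59.3 and 65.6 CPM in shTRIM21, a log2 fold change of 0.30 (SE 0.08, edgeR adjusted p = 0.0244). For both genes every knockdown library lay above every control library. The PLIN2 call ended in edgeR fits that left out shControl replicate 1 (adjusted p = 0.108), shTRIM21 replicate 2 (0.0646) or shTRIM21 replicate 3 (0.136), with replicate 3 of both groups left out (0.0716) and with total counts (0.0564). DGAT2, which makes triacylglycerol, was at 4.13 ± 1.13 and 4.24 ± 0.514 CPM (SD, n = 3 per group), and the lipase PNPLA2 at 16.8 ± 3.38 and 19.5 ± 4.16 CPM. Neither passed.

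Single genes passed in the lists of phospholipid head groups and of other routes to phosphatidic acid. Over all genes tested 9.08% were called in either direction. ETNK1, the ethanolamine kinase that opens phosphatidylethanolamine synthesis, fell from a mean of 247 ± 7.10 CPM in shControl to 194 ± 14.7 CPM in shTRIM21 (SD, n = 3 each), at a log2 fold change of -0.35 (SE 0.07, edgeR adjusted p = 0.00245). It was 1 of 13 tested genes in its list, and the other 12 did not pass. DGKH, a diacylglycerol kinase that makes phosphatidic acid from diacylglycerol, fell from a mean of 115 ± 11.7 CPM in shControl to 88.9 ± 1.52 CPM in shTRIM21 (SD, n = 3 each), at -0.38 (SE 0.08, edgeR adjusted p = 0.00431). The remaining 10 genes of that list did not pass, among them the phospholipases PLD1 and PLD2 and the acylglycerol kinase AGK. PLAAT3, a phospholipase and acyltransferase, rose from a mean of 21.1 ± 1.33 CPM in shControl to 28.1 ± 3.14 CPM in shTRIM21 (SD, n = 3 each), at 0.41 (SE 0.11, edgeR adjusted p = 0.0307). It was the single call among 6 tested genes of lysophosphatidic acid production and reception. Leaving out any library other than shControl replicate 3 ended that call (adjusted p from 0.0514 to 0.172), as did leaving out replicate 3 of both groups (0.121).

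No gene of glycerol 3-phosphate supply (0 of 4), of the phosphatidic acid phosphatases (0 of 8) or of the CDP-diacylglycerol branch (0 of 7) passed edgeR's test. Over all genes that test called 9.08%, so 0 calls in lists this short were not read as a result. At an unadjusted p under 0.05, which 22.8% of all genes reached, these lists held 1, 0 and 1 genes, all higher. They were GK, the glycerol kinase, at 21.5 ± 2.94 CPM in shControl and 27.1 ± 1.12 CPM in shTRIM21, and CDIPT, the phosphatidylinositol synthase, at 15.6 ± 1.42 and 20.6 ± 1.43 CPM (SD, n = 3 each). CDIPT had an edgeR adjusted p = 0.0538 and was 1 gene called by DESeq2, which called 0 in the other lists named here, while limma-voom called 0 in all of them. In either direction DESeq2 called 1545 of all 19002 genes fitted and limma-voom 1198 of 14002. LPIN1, a phosphatidic acid phosphatase, was at 203 ± 1.69 CPM in shControl and 196 ± 1.26 CPM in shTRIM21 (SD, n = 3 each). Its groups did not overlap, but the log2 fold change was -0.05 (SE 0.06, edgeR adjusted p = 0.695).

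**Figure D4:**
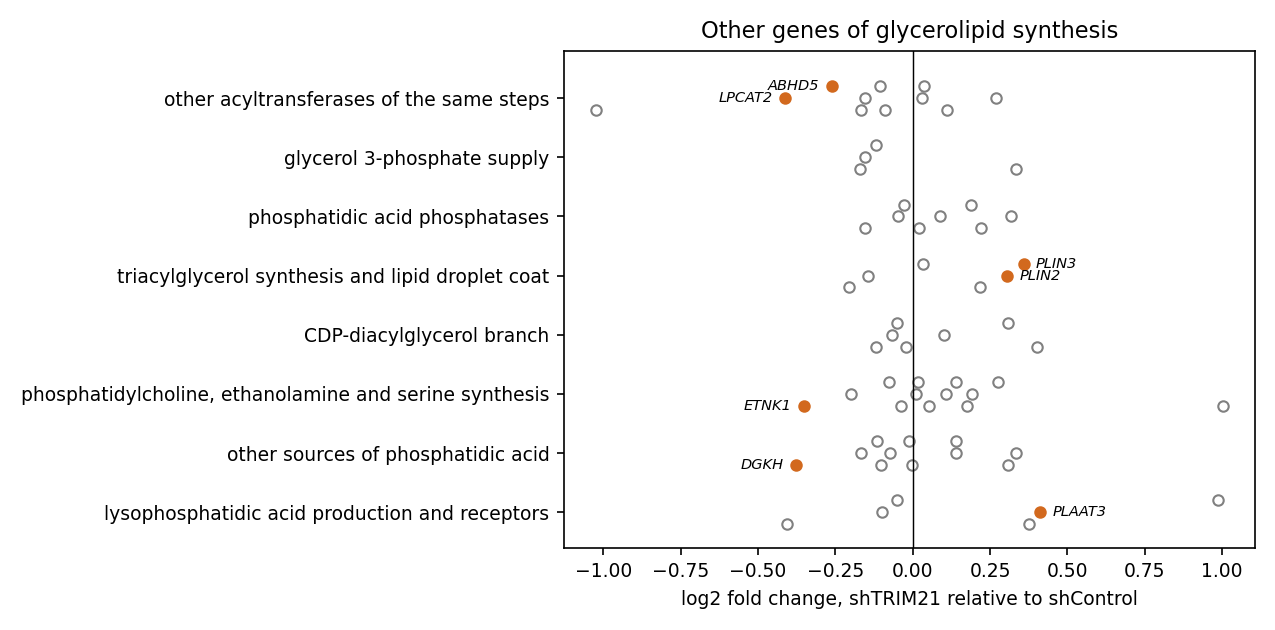
Log2 fold change in shTRIM21 relative to shControl of the 66 tested genes of glycerolipid metabolism outside the 10 acyltransferases, by list. Each point is a gene, filled and named where the edgeR adjusted p is under 0.05. The 7 named genes lie between -0.41 and 0.41 and the lists spread to both sides of 0.

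The genes whose profile was most like that of AGPAT4 were sought among 10368 with a mean of at least 5 CPM. Likeness was the root mean square difference of log2 CPM over the 6 libraries, each gene centred on its mean. HAS2, the hyaluronan synthase, came nearest at 0.33. PLAU, the urokinase, at 0.42, C10orf55 at 0.49 and ANLN, the cytokinetic scaffold anillin, at 0.51 were also among the 5 nearest. C10orf55 shares 916 bases of exon with PLAU on the opposite strand, and the strand setting of the counting is not given in the sources used here, so reads of that stretch could belong to either gene. HAS2 read 43.4, 41.7 and 52.7 CPM in shControl and 15.6, 13.9 and 15.5 CPM in shTRIM21, leaving 32.7% of the control level. The highest AGPAT4 value among knockdown libraries was in replicate 3 and the lowest in replicate 2. HAS2 was likewise lowest in replicate 2 but highest in replicate 1. Among control libraries HAS2 was highest in replicate 3 and AGPAT4 in replicate 2, so the order within groups was not shared. This measure follows mainly the difference between the groups. No relative was among the 5, but the size of the changes settled that, since the relative that fell furthest, GPAM, kept 78.0% of its control level. It was not read as a result.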

How the data were processed

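For 6 rRNA-depleted HCT116 libraries the authors deposited whole-number read counts by gene symbol, not normalized. The submitters' processing notes list hg38, limma 3.52.2, TopHat2 2.1.1 and edgeR 3.38.1, with no role or order. How reads were assigned to genes (counter, annotation, strand, multiple positions) is not given in the sources used here.

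Tests used edgeR 4.0.16 under R 4.3.3, with its default filter on low counts, TMM scaling and the quasi-likelihood test of shTRIM21 against shControl with no other term, with Benjamini-Hochberg adjustment over 14002 genes and a threshold of 0.05. The SE is the log2 fold change divided by the root of the F statistic, and 95% intervals use the degrees of freedom of that test. Exon length, position and 3′ UTRs came from GENCODE release 29 (GRCh38), which matched 26218 symbols. The GC and length offset is a spline fit with 5 degrees of freedom per term on 13454 genes. Other alternatives covered scaling, filters, DESeq2 1.42.0, limma-voom (limma 3.58.1), abundant genes left out, libraries left out, a replicate block and a 1.5-fold threshold. In each of 5 simulated sets of 14002 genes, 200 genes of at least 1 CPM were changed, fewer than the 1272 called in the real comparison. There the test recovered 67.9% of genes changed 1.5-fold and 83% of those changed 2-fold, and 7.86% of its calls were false. These figures hold for that setting and were not obtained with as many changed genes as were called here.

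The members and lists were chosen with earlier results of these data known. Named genes are the members, TRIM21, list genes past the threshold (at most 5 per list), genes overlapping a member and the 5 profiles nearest AGPAT4, of which 1 is not reported here. Other genes named with values (DGAT2, PNPLA2, GK, CDIPT, MBOAT7 and LPIN1) and the 3′ UTR sites were chosen after their values were seen.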

Additional observations from a re-analysis of the deposited data

How the results depend on the processing

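With 1 library left out, genes changed numbered 602 to 1737 against 1272, acyltransferase members changed 1 to 3 against 3, and pathway genes changed 3 to 9 against 7. Against a 1.5-fold change, a stricter question, these were 21, 1 and 0. The members' counts include AGPAT4, which was chosen for its fall, and without it they were 2, 0 to 2 with 1 library left out, and 0 against 1.5-fold. The highest count of genes changed, 1737, came without shControl replicate 3. Each fit with 1 library left out has fewer libraries than the main fit, and the cause of the differing counts was not tested. AGPAT4 ran from -2.01 to -1.40 over the 18 alternatives. These refit the counts it was chosen from, so its kept direction is a description and no support. Of the 10 members, 8 kept their direction in all alternatives, AGPAT4 among them, the exceptions being AGPAT1 and AGPAT2, and 7 were called in none. The deviations of libraries that share a number correlated at 0.096, -0.012 and 0.091 for numbers 1 to 3, so the number was not taken as pairing. With the replicate block, 1699 genes, 3 members and 9 pathway genes were called. A length taken from the longest transcript moved the AGPAT4 loss to -0.799 CPM per kb. At these depths 1 count was worth 0.0356 to 0.0449 CPM.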
